A study of Mus musculus with 64 samples.

Results

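Blastocysts were compared with 8-cell mouse embryos on 8 arrays, the 4 titled blastocyst and the 4 titled 8-cell embryo, out of 64 arrays in all. Both groups were total RNA of whole mouse (Mus musculus) embryos in the first channel of a 2-colour array, read against a second channel named Universal Control. The labels give no strain, age, embryo number or culture condition, and nothing says that the 4 arrays of a stage came from separate collections, so that p-values measure the spread between these arrays, which may be technical. The 8 arrays belong to a set of 28 arrays that follows 7 stages from the unfertilized egg to the blastocyst, 4 arrays a stage, and the other 36 arrays, a set of treated early embryos and their controls, were not used. The morula, the stage between the compared stages, served to place each change.

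Between these stages the embryo compacts, its outer cells gain apical and basolateral membranes and join through adherens and tight junctions, and the resulting epithelium, the trophectoderm, pumps fluid inwards to open the blastocoel. The cells left inside form the inner cell mass, which later divides into the epiblast and the primitive endoderm. The embryo also begins to take up and use more glucose, having relied mainly on pyruvate and lactate before.

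Values are log2 ratios of the embryo to the reference, so that 0 means equal signal in both channels and a difference of 1 means a 2-fold difference. The deposited log10 ratios were turned in sign to reach this scale. The direction is likely, not settled. It rests on lineage genes: unfertilized eggs exceeded blastocysts for 11 of 11 probes of 9 oocyte genes, and blastocysts exceeded unfertilized eggs for 6 of 8 probes of 5 trophectoderm genes. The deposited ratios stop at 100-fold in either direction, which is 6.64 on the log2 scale. Of the values on these 8 arrays 0.873% sat at a limit and 0.44% were exactly 0. The arrays of a stage were close to each other, with a mean correlation with the rest of the stage of 0.9584 to 0.9673 for blastocysts and 0.9694 to 0.9759 for 8-cell embryos. Array medians lay at 0.06 to 0.07 for blastocysts and 0.08 to 0.13 for 8-cell embryos. All 8 arrays fell into the same array run, a grouping read from the number of features at the upper limit that no label records. Such features numbered 69 to 309 on blastocyst arrays and 185 to 259 on 8-cell arrays, and arrays with at least 320 were placed in the other run. Blastocyst array 4 (309) and morula array 4 (312) lay just under that cut, so that their run is uncertain. Arrays carry no read depth, and their number limits the precision.

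By limma, 752 of 22575 probes rose (3.33%) and 80 fell (0.354%) at an adjusted p under 0.05, of which 668 and 66 differed by at least 2-fold. In these samples of whole embryos, a larger share of cells that hold a transcript and more of it in each cell cannot be told apart. The fit shared its estimate of spread over all 28 stage arrays. A fit of the 8 arrays alone, whose replicates were tighter than those of the other stages, gave the same differences and called 2578 higher and 1709 lower, with 750 of the 752 rises and all 80 falls among them. The split moved with the processing: after each array was scaled to a common spread 432 rose and 76 fell, after quantile normalization 642 and 145, and with array weights 3173 and 2559, a split closer to even. Among called probes that differed by at least 2-fold, 1127 rose and 133 fell with array weights, and 1050 and 119 in the 8 arrays alone. Were the sign of the deposited ratios the opposite, the counts would be 80 higher and 752 lower in blastocysts.

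The levels of the called probes are a description, since they were chosen on these same arrays. The median level of the probes that rose was -0.58 in blastocysts and -2.17 in 8-cell embryos, and 67.7% of them were below the reference in blastocysts, against 91.5% in 8-cell embryos. With the sign turned these shares would be above the reference. Over all probes, 47.3% were below it in blastocysts and 46.5% in 8-cell embryos. The probes that fell had a median level of -0.72 in blastocysts and 0.87 in 8-cell embryos. The standard deviation across all probes of an array, a measure of how far its ratios spread, was 1.57 to 1.64 on blastocyst arrays and 1.75 to 1.83 on 8-cell arrays. It was lower by 0.18 on average in blastocysts, with no overlap (two-sided exact permutation p = 0.0286, the smallest that 4 arrays against 4 allow). Whether this narrower spread has a part in the excess of rises was not tested beyond the rescaled counts above.

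**Figure D1:**
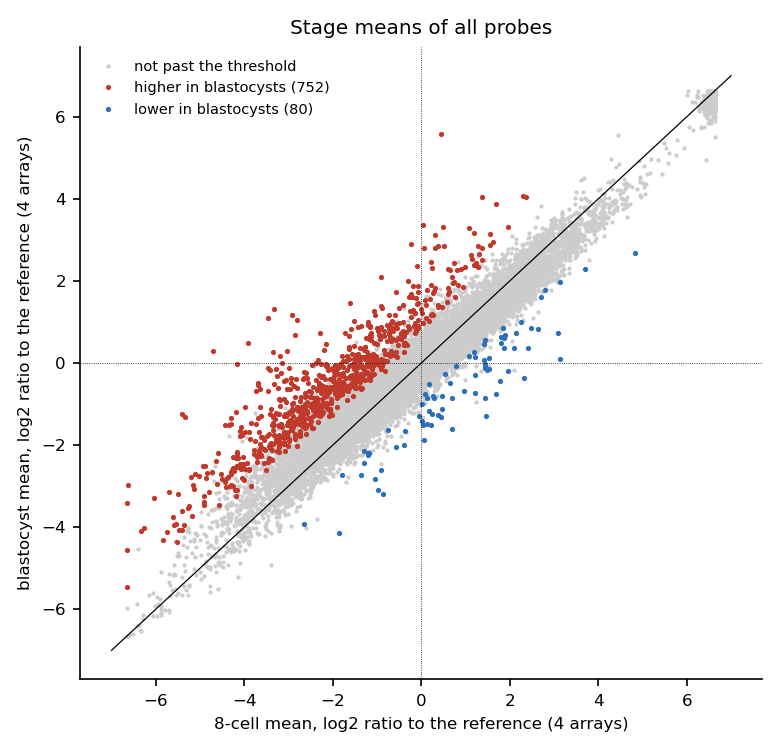
Mean log2 ratio to the reference of every probe in blastocysts (vertical axis) against 8-cell embryos (horizontal axis), 4 arrays each, with the 752 probes higher and the 80 lower in blastocysts coloured and the line of equal levels drawn. Most probes that were higher lie to the left of 0 on the 8-cell axis, where the transcript was below the reference.

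Named genes are those whose probe carries exactly 1 gene symbol. By the probe with the smallest p, 218 of 3089 such genes rose (7.06%) and 15 fell (0.486%). In the fit of the 8 arrays alone 636 rose (20.6%) and 263 fell (8.51%).

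Among the largest rises, Pon2, a membrane-bound lactonase with antioxidant activity, stood at 0.62, 0.18, 0.49 and -0.18 in blastocysts, against -3.31, -3.51, -3.21 and -3.36 in 8-cell embryos. Ptgis, the enzyme that makes prostacyclin, stood at -0.00, -0.18, 0.06 and -0.34 in blastocysts, against -3.71, -3.60, -3.21 and -3.35 in 8-cell embryos. For both genes the 4 blastocyst arrays sat near the reference and the 4 8-cell arrays roughly 3 log2 units below it, with no overlap. Pon2 was 12.4-fold higher (log2 difference 3.63 ± 0.54 SE, n = 4 a stage, limma adjusted p = 8.8e-05) and Ptgis 10.2-fold higher (3.35 ± 0.43, limma adjusted p = 1.5e-05).

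Iqgap1, a scaffold that ties actin and the small GTPases Rac1 and Cdc42 to junctions, stood at -0.24, -0.15, 0.49 and -0.75 in blastocysts, against -2.49, -3.67, -3.91 and -3.61 in 8-cell embryos. It was 9.57-fold higher (3.26 ± 0.62 SE, limma adjusted p = 0.0017). Its other probe differed in the same direction by 1.61 (limma adjusted p = 0.081). Myof, a ferlin of plasma membrane repair, stood at -3.01, -3.60, -3.22 and -3.86 in blastocysts and at the lower limit in all 4 8-cell arrays, so that it was at least 9.33-fold higher (limma adjusted p = 0.00061). Even in blastocysts it stayed well below the reference.

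Other large rises were the transporter genes Ank, which exports pyrophosphate (8.9-fold), and Slc44a1, a choline transporter (7.55-fold). The β-tubulin Tubb5 rose 7.54-fold, the splicing-speckle protein Srrm2 6.95-fold, the mitochondrial deacetylase Sirt3 5.99-fold and the syndecan-binding adaptor Sdcbp 5.88-fold. Genes of this kind were named under the condition that the arrays of the stages did not overlap, as was true of 5662 of all 22575 probes (25.1%). Gsta4, a glutathione transferase that clears lipid aldehydes, rose 8.28-fold by 1 probe, while its other probe differed by -0.08. The largest difference of any named gene rested on a single probe too. Rps23, a protein of the small ribosomal subunit, stood at 1.56, 0.97, 1.66 and 1.07 in blastocysts by probe 651, against -2.58, -4.04, -3.37 and -3.33 in 8-cell embryos, a 25-fold rise. The other 2 Rps23 probes differed by -0.31 and -0.10.

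Among the falls, Tfrc, the transferrin receptor through which cells take up iron, stood at -0.06, -0.54, -1.31 and -1.12 in blastocysts, against 2.08, 1.59, 1.60 and 1.46 in 8-cell embryos. It was 5.43-fold lower in blastocysts (-2.44 ± 0.34 SE, limma adjusted p = 4.9e-05). A second Tfrc probe fell by 2.30 and the third differed by -0.10. Ola1, an Obg-like ATPase, stood at 0.07, -0.17, -0.31 and -0.38 in blastocysts, against 1.63, 1.87, 2.03 and 2.27 in 8-cell embryos, and was 4.44-fold lower (limma adjusted p = 2.4e-06). Both genes lay above the reference on every 8-cell array.

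Ccdc192 fell 6.82-fold, the tetraspanin Tspan4 4.94-fold, the lysosomal membrane protein Lamp2 3.42-fold by 1 of 2 probes (the other differed by -0.36), Ankrd10 3.12-fold and the phospholipase Plaat3 2.88-fold. The remaining 5 of the 12 largest falls were 2.08-fold to 2.77-fold: Tor2a, an ATPase of the torsin family, the nucleolar phosphoprotein Nolc1, the mitophagy receptor Bnip3l, the cyclophilin Ppig and the coronin Coro2a. Each of these 5 missed the threshold when certain single arrays were left out, with largest limma adjusted p of 0.14 for Tor2a (without 8-cell array 3), 0.071 for Nolc1 (8-cell array 4), 0.086 for Bnip3l (blastocyst array 3), 0.074 for Ppig (blastocyst array 3) and 0.12 for Coro2a (blastocyst array 4). Other probes differed by -0.13 and -0.27 for Nolc1, by -0.65 and -0.48 for Bnip3l, by -0.88 for Ankrd10 and by 0.55 for Ppig, none past the threshold.

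**Figure D2:**
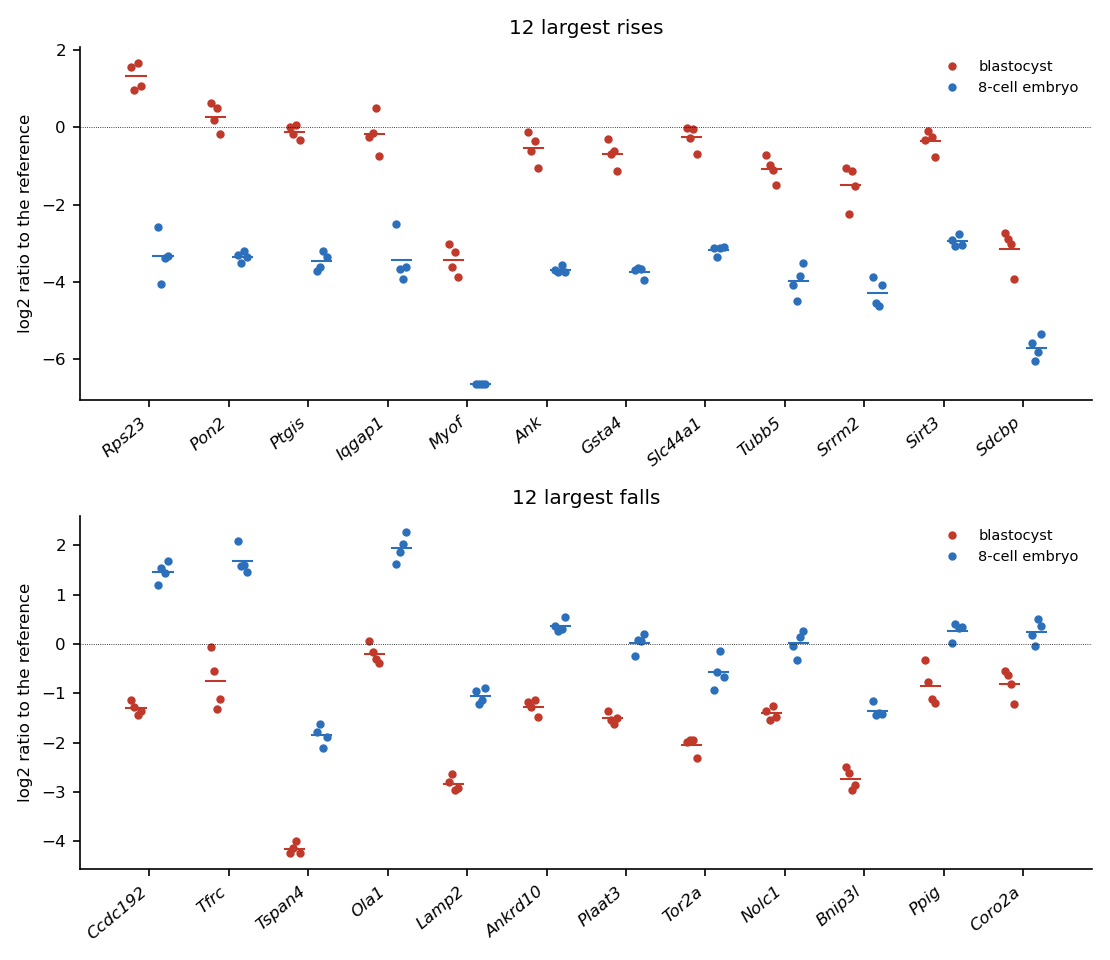
Log2 ratio to the reference on each of the 4 blastocyst and 4 8-cell arrays for the 12 largest rises (upper panel) and the 12 largest falls (lower panel), with lines at the stage means. Genes were drawn only where the stages did not overlap, and the 4 8-cell points of Myof all sit at the lower limit.

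Probes for 1 gene often moved by different amounts. Of 867 genes with several probes, 103 had a probe that rose. All probes rose for 6 of them, all were above 0 for 53, and no gene had a probe that rose and another that fell. The last says little, since only 0.354% of all probes fell. The 6 genes, picked out after their values were seen, were Fabp3, Arpc2, Srrm2, Igf2bp3, Me1 and Washc4. Igf2bp3, an RNA-binding protein of early development, rose by 1.42 and 2.06 on the log2 scale, Me1, the cytosolic malic enzyme, by 0.83 and 1.92, and Washc4, a subunit of the endosomal WASH complex, by 1.75 and 1.25. With single arrays left out, the weaker probe of Srrm2, Me1, Washc4 and Fabp3 missed the threshold, with largest limma adjusted p of 0.16, 0.13, 0.12 and 0.0546. Of 8 genes with several probes and a probe that fell, none had all its probes fall.

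**Figure D3:**
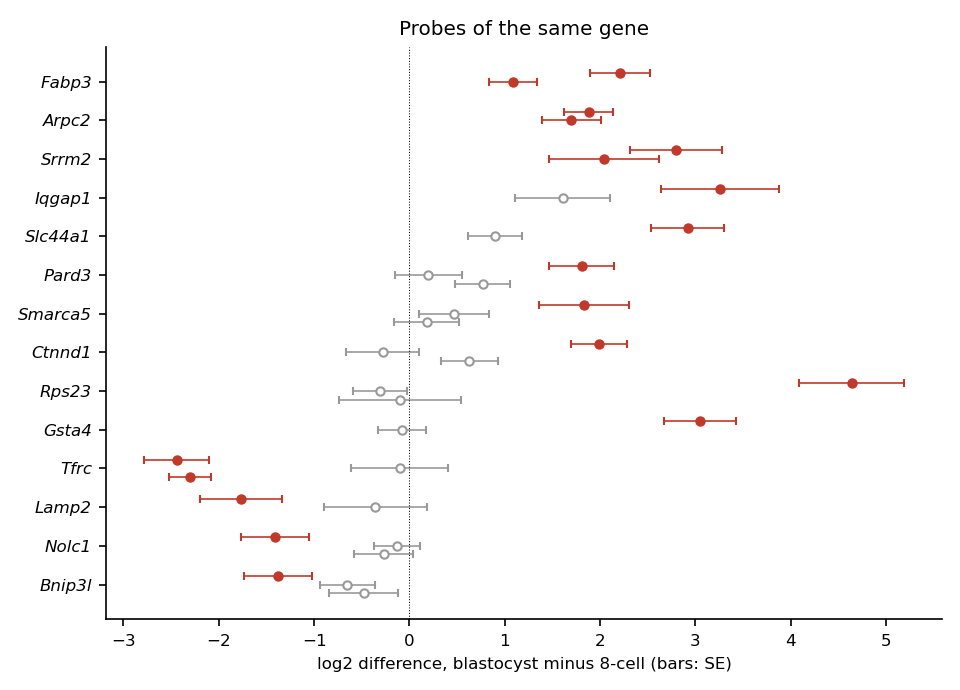
Log2 difference, blastocyst minus 8-cell, with its SE, for every probe of 14 named genes; filled points passed the threshold and open points did not. Both probes of Fabp3, Arpc2 and Srrm2 passed, whereas for Rps23 and Gsta4 the probe that rose stands apart from probes near 0.

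The gene lists below were chosen with earlier results of these data known, so that their shares are a description. Junction and polarity genes bear on the epithelium that the outer cells form over this interval. Of 16 measured genes 6 rose (37.5%, against 7.06% of all genes), 0 fell and 10 did not pass. Of the 16 differences 15 were above 0, against 1519 of all 3089 genes. The median difference was 0.64, against -0.02 over all genes. Ctnnd1, the p120 catenin that keeps E-cadherin at the membrane, stood at 0.78, 0.32, 0.32 and -0.05 in blastocysts, against -1.63, -1.73, -1.66 and -1.54 in 8-cell embryos (1.99 ± 0.29 SE, limma adjusted p = 7.9e-05). Pard3, a scaffold of the Par polarity complex, stood at 1.69, 1.50, 1.66 and 1.55 in blastocysts, against -0.05, -0.40, -0.05 and -0.32 in 8-cell embryos (1.81 ± 0.34 SE, limma adjusted p = 0.0016). By this probe Pard3 was above the reference in all blastocyst arrays and below it in all 8-cell arrays. Its other probes did not cross it on average, at 1.72 and -0.20 in blastocysts and 0.95 and -0.40 in 8-cell embryos.

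The α-catenin Ctnna1, which links cadherins to actin, rose 2.95-fold and the desmosomal cadherin Dsg2 2.56-fold. The plakophilin Pkp4 rose 2.43-fold and F11r, the tight-junction protein JAM-A, 1.81-fold. With a single array left out Ctnna1 passed only where that was blastocyst array 4 (largest limma adjusted p 0.12, without blastocyst array 1 or 3), and it did not pass after scaling (1.00, limma adjusted p = 0.25) or quantile normalization (0.061). Dsg2 missed the threshold without blastocyst array 1 (0.13) or 3 (0.074) or 8-cell array 1, 2 or 3 (0.056 to 0.062), and F11r and Pkp4 reached 0.13 and 0.1 with single arrays left out. The other probes of Ctnnd1 differed by -0.28 and 0.63 and those of Pard3 by 0.20 and 0.77, none past the threshold. Cdh1, E-cadherin itself, differed by 0.25 and the tight-junction protein Ocln by 0.32, neither past the threshold.

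In the actin cytoskeleton list 3 of 12 genes rose (25%, against 7.06% of all genes) and 0 fell, with a median difference of 0.38. Myh9, the heavy chain of non-muscle myosin IIA that gives the cell cortex its tension, stood at 0.42, 0.07, 0.33 and -0.50 in blastocysts, against -1.95, -2.34, -2.48 and -2.55 in 8-cell embryos. It was 5.3-fold higher (2.41 ± 0.22 SE, limma adjusted p = 8.5e-08). Arpc2, a core subunit of the actin-branching Arp2/3 complex, rose by both of its probes, by 1.88 ± 0.26 and 1.70 ± 0.31 (SE), and the tropomyosin Tpm3 rose 2.54-fold. Flna and Zyx, which crosslink actin and mark adhesions, differed by 0.59 and 0.40 and did not pass.

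Of 6 named cortex and junction genes whose windows were searched, the 5 with a match to the AP-2 core are shown, each by its window that holds one, to let the letters be read. Tpm3, which rose too, had no match. The junction genes Ctnna1, Dsg2, F11r and Pkp4 also rose but are not among these 6. The 5 of 6 is therefore not a share of all the cortex and junction genes that rose. Matches to GCCNNNGGC, the core recognised by the AP-2 factors of trophectoderm, are in capitals. Windows run from 250 bases before to 50 bases after the annotated start (RefSeq, GRCm38.p6), written 5′ to 3′ along the gene.

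Myh9, GRCm38.p6, chr15:77842126-77842425, minus strand: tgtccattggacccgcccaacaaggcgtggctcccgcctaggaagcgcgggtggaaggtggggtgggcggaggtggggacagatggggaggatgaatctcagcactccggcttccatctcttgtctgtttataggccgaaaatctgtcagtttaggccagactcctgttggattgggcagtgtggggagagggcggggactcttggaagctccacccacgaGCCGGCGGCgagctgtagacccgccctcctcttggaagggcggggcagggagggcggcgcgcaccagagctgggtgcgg

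Arpc2, GRCm38.p6, chr1:74236267-74236566, plus strand: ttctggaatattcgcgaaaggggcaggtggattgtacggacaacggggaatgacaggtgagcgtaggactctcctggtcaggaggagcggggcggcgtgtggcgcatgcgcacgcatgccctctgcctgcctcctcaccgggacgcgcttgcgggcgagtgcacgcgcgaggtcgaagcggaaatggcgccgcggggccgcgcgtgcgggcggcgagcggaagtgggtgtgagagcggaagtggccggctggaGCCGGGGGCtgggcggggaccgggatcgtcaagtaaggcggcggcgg

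Iqgap1, GRCm38.p6, chr7:80803282-80803581, minus strand: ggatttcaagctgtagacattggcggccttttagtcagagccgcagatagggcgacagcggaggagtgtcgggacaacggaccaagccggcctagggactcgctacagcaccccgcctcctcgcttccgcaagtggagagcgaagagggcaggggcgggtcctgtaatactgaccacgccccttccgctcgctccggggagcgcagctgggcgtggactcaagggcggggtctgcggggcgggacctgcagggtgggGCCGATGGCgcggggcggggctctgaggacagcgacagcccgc

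Ctnnd1, GRCm38.p6, chr2:84650691-84650990, minus strand: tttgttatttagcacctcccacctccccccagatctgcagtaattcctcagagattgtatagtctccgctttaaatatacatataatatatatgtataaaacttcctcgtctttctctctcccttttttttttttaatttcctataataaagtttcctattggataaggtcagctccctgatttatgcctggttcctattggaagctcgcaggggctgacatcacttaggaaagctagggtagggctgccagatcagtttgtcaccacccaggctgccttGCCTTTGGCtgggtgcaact

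Pard3, GRCm38.p6, chr8:127063806-127064105, plus strand: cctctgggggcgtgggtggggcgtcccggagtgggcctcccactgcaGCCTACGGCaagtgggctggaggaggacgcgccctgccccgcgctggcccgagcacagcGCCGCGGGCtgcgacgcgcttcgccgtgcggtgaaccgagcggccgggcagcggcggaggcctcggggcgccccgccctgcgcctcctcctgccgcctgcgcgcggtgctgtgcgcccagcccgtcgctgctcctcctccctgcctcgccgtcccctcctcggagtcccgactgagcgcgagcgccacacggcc

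The second windows of Ctnnd1 and Pard3 and both windows of Tpm3 hold no such match. The motif, searched on both strands, was in 16.6% of all 32851 windows, in 26% of the 3299 windows of genes measured here and in 28.4% of the 215 windows of 170 genes that rose, so that its share among genes that rose lay close to that among all measured genes. The TEAD core CATTCC, also searched on both strands, was in 14.7%, 12% and 14% of the same windows, and among the 5 windows shown it was found in that of Arpc2. A match is a description of the letters and not of a bound site.

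Among genes of glucose uptake and glycolysis, 4 of 11 measured rose (36.4%, against 7.06% of all genes) and 0 fell, with a median difference of 0.27. Hk2, a hexokinase that traps glucose in the cell, stood at -1.54, -1.61, -1.43 and -1.41 in blastocysts, against -3.94, -4.18, -3.62 and -3.16 in 8-cell embryos, 4.7-fold higher (2.23 ± 0.54 SE, limma adjusted p = 0.013). Pkm, pyruvate kinase, rose 4.17-fold, and the glucose transporters Slc2a1 and Slc2a3 rose 3.12-fold and 2.05-fold. Slc2a3 was above the reference at both stages and Slc2a1 far below it, at -3.95 ± 0.39 in blastocysts and -5.59 ± 0.16 in 8-cell embryos (SD, n = 4). The glycolytic enzymes Tpi1 and Pgk1 and the lactate dehydrogenase Ldha differed by -0.49, -0.24 and -0.25 and did not pass. Hk2 missed the threshold without 8-cell array 2 and Slc2a1 without blastocyst array 1 (limma adjusted p = 0.061 for each). After scaling Hk2, Pkm and Slc2a1 differed by 1.67, 1.25 and 0.73 and did not pass (0.07, 0.064 and 0.38).

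Of 16 genes of cholesterol and fatty acid metabolism 4 rose (25%, against 7.06% of all genes) and 0 fell. Of their differences 13 were above 0, against 1519 of all 3089 genes, and the median was 0.50. Fabp5, a fatty acid binding protein, stood at 1.34, 0.97, 0.96 and 0.43 in blastocysts, against -0.98, -1.72, -1.14 and -1.02 in 8-cell embryos, 4.41-fold higher (2.14 ± 0.24 SE, limma adjusted p = 2.6e-06). Fabp3, another binding protein of the family, rose by both probes, 4.63-fold and 2.13-fold. Dbi, which binds acyl-CoA, rose 3.28-fold, and the desaturase Scd1 3.2-fold by 1 probe, with -0.10 for its other probe. Fads1 and Fasn, enzymes of fatty acid desaturation and synthesis, differed by -0.86 and -0.27 without passing.

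Of 22 measured chromatin genes 5 rose (22.7%, against 7.06% of all genes) and 0 fell, with a median difference of 0.64. In the fit of the 8 arrays alone 13 rose and 1 fell, where 20.6% of all genes rose and 8.51% fell. Macroh2a1, a histone H2A variant enriched on the inactive X chromosome, stood at 0.58, -0.18, 0.04 and -0.47 in blastocysts, against -2.21, -2.49, -2.51 and -2.26 in 8-cell embryos, 5.12-fold higher (2.36 ± 0.33 SE, limma adjusted p = 4.6e-05). Cbx1, the heterochromatin protein HP1β, rose 4.11-fold, the remodelling ATPase Smarca5 3.54-fold by 1 of 3 probes, and the Polycomb protein Cbx7 2.96-fold. Dnmt3b, a de novo DNA methyltransferase, was the fifth: it rose 2.58-fold by 1 probe, and its other probes differed by 0.95 and 0.25 without passing. Smarca5 and Cbx7 missed the threshold without some single arrays, with largest limma adjusted p of 0.11 (without 8-cell array 2) and 0.1 (without blastocyst array 1).

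Of the 24 trophectoderm markers listed 5 had a probe of their own, and Fabp3 was the one that rose. Hand1, Fgfr2, Tfap2a and Cyp11a1 differed by 0.35, 0.64, 0.14 and -0.15, so that the label blastocyst could be checked against few defining genes, and Cdx2, Eomes, Gata3 and the keratins were not measured by such a probe. Of the 7 measured markers of inner cell mass and epiblast 0 passed, in either direction. Nanog stood at 1.43 ± 0.13 in blastocysts and 1.36 ± 0.11 in 8-cell embryos (SD, n = 4) with overlapping arrays. Zfp42 stood at 4.46 ± 0.19 in blastocysts and 3.61 ± 0.47 in 8-cell embryos, also with overlap, and its other probe differed by 0.10. All 7 lay above the reference at both stages by their listed probe.

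Of 10 measured primitive endoderm genes 3 rose (30%, against 7.06% of all genes) and 0 fell. Those that rose encode basement membrane proteins, as do Col4a1 and Lama1, which differed by 0.46 and 0.40 without passing. Sparc and Serpinh1 differed by 0.88 and -0.59 without passing. Lamb1, a laminin β chain, rose 3.16-fold, Lamc1, the γ chain it pairs with, 2.7-fold and Col4a2, a collagen IV chain, 2.15-fold. The adjusted p of Lamc1, 0.049959, sat at the threshold, and Lamb1, Lamc1 and Col4a2 reached limma adjusted p of 0.18 (without blastocyst array 1), 0.19 (8-cell array 3) and 0.1 (8-cell array 2) when single arrays were left out. All 3 also missed it after scaling (0.41 for Col4a2, 0.63 for Lamb1, 0.22 for Lamc1) and after quantile normalization (0.14, 0.28 and 0.11 in that order). The transcription factors Sox17 and Gata4, which define the lineage, differed by 0.57 and -0.26 and did not pass. In the fit of the 8 arrays alone 5 of the 10 genes rose, Sox17 among them (limma adjusted p = 0.034), and 1 fell. In that fit 20.6% of all genes rose and 8.51% fell.

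Marker lists of other cells gave no call. Of 9 oocyte genes 0 rose and 0 fell in the fit of 28 arrays (2 fell in the fit of the 8 arrays alone), and their mean level on an array was 0.48 to 0.75 in blastocysts and 0.89 to 0.99 in 8-cell embryos. Of the cumulus and granulosa cell, blood and immune cell, and fibroblast and oviduct cell lists, 4, 3 and 1 genes were measured and 0 passed in the fit of 28 arrays. In the fit of the 8 arrays alone 2 of the 4 cumulus genes, Pgr and Fst, and 1 of the 3 blood genes, H2-Aa, fell. Of all genes 8.51% fell in that fit. Car2, the one ion pump and fluid transport gene with its own probe, differed by 0.16 without passing.

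The counts of the remaining lists stand beside a share of 7.06% of all genes that rose. Of 38 splicing genes 3 rose (7.89%), Srrm2, Sf3b2 (3.66-fold) and Tra2a (3.17-fold). Of 26 cell cycle genes 3 rose (11.5%), Smc1a, Anln and Cdk2, and of 15 DNA replication genes 2 rose (13.3%), Cdt1 and Msh6. Cdt1 rose by 1 probe (1.36), while its other probe differed by -0.58 and was lower past the threshold in the fit of the 8 arrays alone (limma adjusted p = 0.019). The other probes of Anln, Smc1a and Tra2a differed by -0.38, 0.42 and 0.55 and did not pass. Of 17 redox genes 3 rose (17.6%) and 1 fell, all named above. Of 21 lysosome and endocytosis genes 2 rose, Lamp1 (2.95-fold) and Rab11a (1.8-fold by 1 probe, with -0.13 for the other), and 1 fell, Lamp2, by 1 of its 2 probes. Ribosome biogenesis had 1 of 13 higher, Nop56, and 1 lower, Nolc1.

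Stat3, the transcription factor downstream of LIF, was the 1 of 16 signalling genes that rose (2.67-fold, limma adjusted p = 0.00034). Of 15 respiratory chain genes 2 rose (Uqcrc2, Cox4i1), of 20 translation factors 2 (Eif3a, and Eif2s2 by 1 probe, with -0.03 for the other), of 24 chaperones 2 (Pfdn1, Hsp90b1), of 13 proteasome genes 1 (Psmd2 by 1 probe, with 0.91 for the other), of 8 apoptosis genes 1 (Aifm1) and of 23 ribosomal protein genes 1 (Rps23), with 0 lower in each. Of the genes in these last lists, Cox4i1, Nop56, Eif3a, Psmd2, Pfdn1, Hsp90b1, Rab11a and Msh6 did not pass after scaling (limma adjusted p 0.0533 to 0.76). Cox4i1, Eif3a, Pfdn1, Msh6, Tra2a, Psmd2, Nop56, Uqcrc2 and Cdk2 missed the threshold without some single arrays, with the largest limma adjusted p 0.2, for Cox4i1 without blastocyst array 1. Of 8 Hippo pathway genes and of 4 amino acid transport genes 0 passed.

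**Figure D4:**
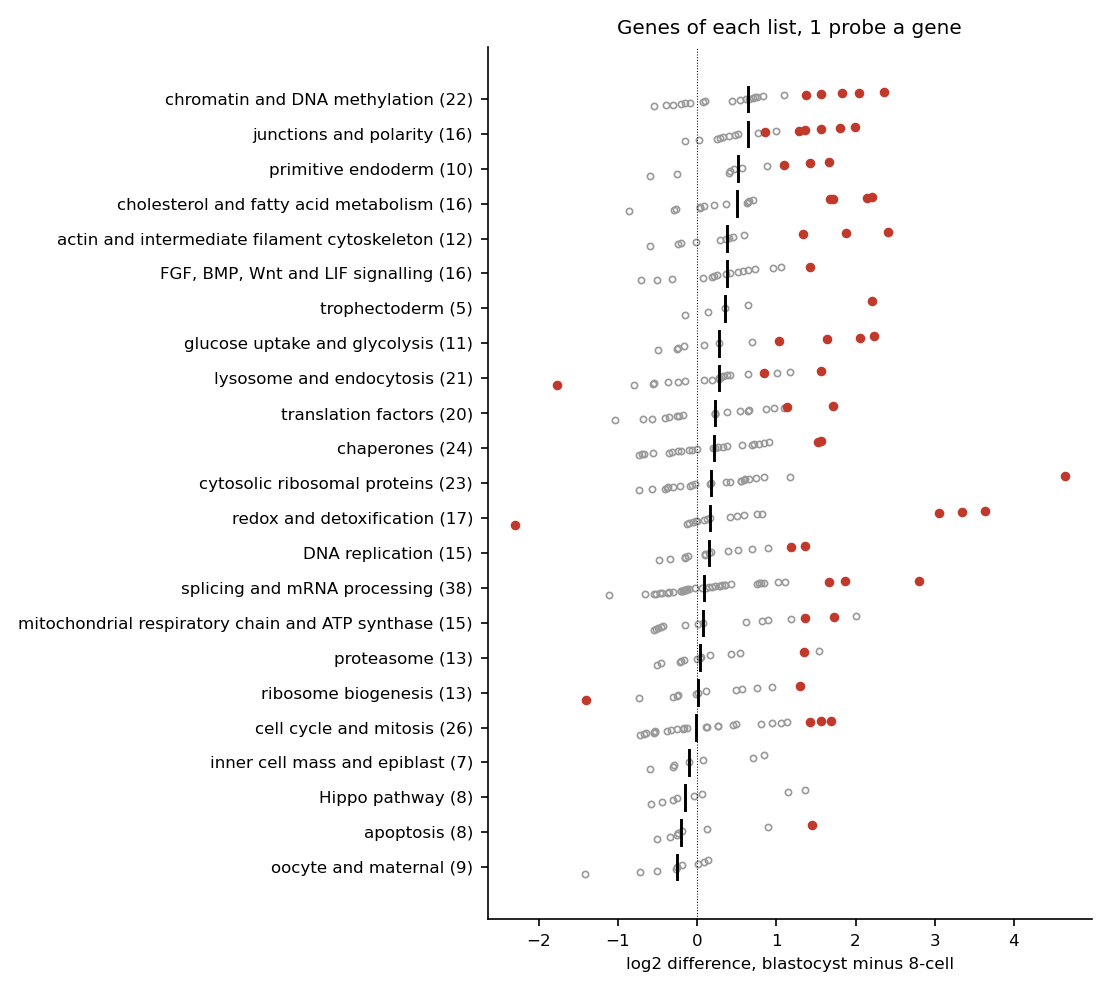
Log2 difference, blastocyst minus 8-cell, of each measured gene of the lists with at least 5 genes, by the probe with the smallest p; filled points passed the threshold, the black bar is the list's median and the number of genes is in brackets. Junction and chromatin genes have the highest medians, 0.64 each, and oocyte genes the lowest, -0.26.

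To place the changes, blastocysts were set against morulae, which lie in both array runs, with the run as a block. There 249 of 22575 probes rose (1.1%) and 40 fell (0.177%). With single arrays left out 120 to 297 rose and 16 to 44 fell: 120 and 27 without blastocyst array 1, 174 and 26 without blastocyst array 2, 146 and 24 without blastocyst array 3, 145 and 44 without morula array 3 and 192 and 16 without morula array 4. This comparison shares the blastocyst arrays with the one above. From the 8-cell embryo to the morula 0 probes passed by limma, with 1601 at an unadjusted p under 0.05, whereas without the block, where the run and the stage are mixed, 1101 passed. The block rests on the inferred run, and morula array 4 and blastocyst array 4 lay just under its cut.

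The step from morula to blastocyst was set against that from 8-cell embryo to morula in a test of the difference between the steps. It called 12 probes (0.0532%), of which 1 had a single symbol: Snx9, a sorting nexin of endocytosis, which differed by 1.76 from morula to blastocyst and by -0.39 before it, and was singled out after its values were seen. For the other named genes the steps were not shown to differ. Side by side, Pon2 differed by 3.03 from the morula and the morula by 0.60 from the 8-cell embryo. For Myof morula arrays 1 and 4 and all 8-cell arrays sat at the lower limit, so that its earlier step has no value. Myh9 differed by 1.80 (limma adjusted p = 8.5e-05) and 0.61, and Tfrc by -2.51 and 0.07. Smc1a ran the other way, with 0.15 from the morula to the blastocyst and 1.54 before it. Fcgr1, an Fc receptor gene, was 2.7-fold lower in blastocysts than in morulae although it did not pass against 8-cell embryos, where it differed by -0.49, and its other 2 probes differed from 8-cell embryos by -0.23 and 0.29.

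Levels over the 7 stages are a description, since fertilized eggs, 2-cell and 4-cell embryos, 3 of the 4 unfertilized egg arrays and 2 of the 4 morula arrays lie in the other array run, so that egg and morula means mix the runs. Myh9 lay between -1.58 and -2.33 on average at every stage up to the 8-cell embryo, at -1.61 in morulae and at 0.08 in blastocysts. Fabp5 was at -0.11 in fertilized eggs, -4.30 in 4-cell embryos, -1.21 in 8-cell embryos and 0.93 in blastocysts. Tfrc was at -1.20 in unfertilized eggs, 2.53 in 4-cell embryos, 1.94 in morulae and -0.76 in blastocysts, and its mean was above the reference from the 2-cell embryo to the morula. Ola1 followed a like course, with its highest mean, 1.95, in 8-cell embryos. Not every gene that rose was highest in blastocysts. Pkp4 averaged 2.00 in fertilized eggs and -0.31 in blastocysts, and Ctnna1 -1.12 in unfertilized eggs and -2.05 in blastocysts. Pard3 averaged 1.70 in fertilized eggs and 1.60 in blastocysts. How many of the genes that rose followed either course was not counted.

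**Figure D5:**
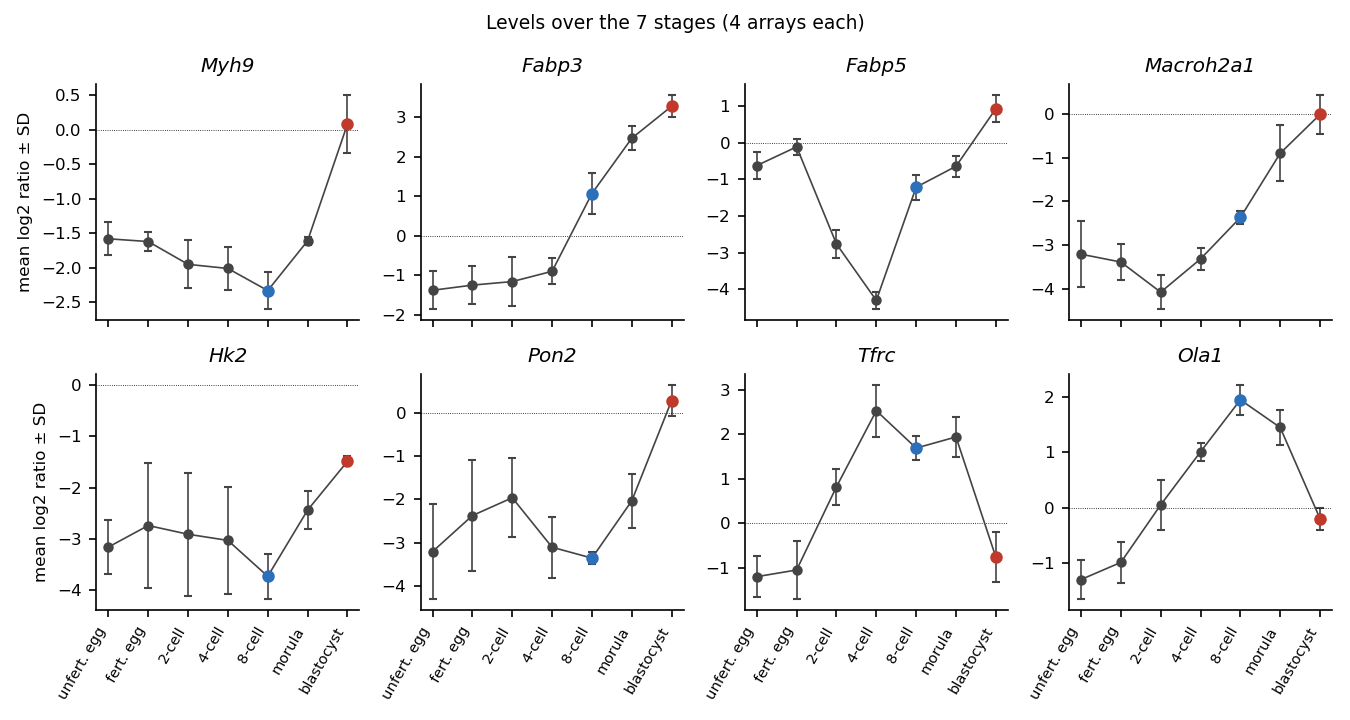
Mean log2 ratio to the reference with its SD (4 arrays) over the 7 stages for 8 genes, with the blastocyst mean in red and the 8-cell mean in blue. Myh9, Fabp3, Fabp5, Macroh2a1, Hk2 and Pon2 have their highest mean in blastocysts, and Tfrc and Ola1 theirs in cleavage stages. Some genes that rose but are not drawn, such as Pkp4 and Ctnna1, were higher in eggs.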

How the data were processed

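The authors deposited a table of processed values for 22575 probes, which behave as log10 ratios of the 2 channels and are held between -2 and 2. The log base was read from these limits. No source used here gives the background correction, the normalization within arrays or the dyes. For this comparison, values were turned in sign and put on a log2 scale. Probes were named through the platform annotation: 4262 carry 1 symbol (3089 genes), of which 4247 matched a current gene by Entrez number. The 6822 with several symbols and the 11491 without entered the tests unnamed.

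Stages were fitted with limma 3.58.1 (lmFit, eBayes) in R 4.3.3 over all 28 stage arrays, two-sided, with Benjamini-Hochberg adjustment over all probes, and the fit was tested on simulated data. The members and lists were chosen with earlier results of these data known. Named genes have 1 symbol and are the 12 largest rises and falls past the threshold in the fits of 28 and 8 arrays without overlap (1 probe a gene), up to 4 genes a list, the lineage markers, and the 6 largest differences from the morula in each direction. Genes outside this rule are Dnmt3b, F11r, Pkp4, Snx9, Igf2bp3, Me1, Washc4 and members of lists given only by values. Alternatives covered samples, array run, replicate number, scaling, limits, zeros, array weights and single arrays.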

Additional observations from a re-analysis of the deposited data

Results flagged for a closer look

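Among 170 stage groups of the named genes, 9 held an array that stood apart from the other 3 of its stage by Dixon's criterion, which chance exceeds in about 1 in 20 groups. On 8-cell arrays these were Gsta4 in array 4 (-3.94, others -3.68 to -3.64), Slc44a1 in array 2 (-3.35, others -3.11 to -3.10), Bnip3l in array 1 (-1.15, others -1.43 to -1.39) and Tdgf1 in array 3 (3.18, others 2.79 to 2.84). Col4a2 in 8-cell array 2 (-3.50, others -2.98 to -2.92), Psmd2 in array 1 (-3.94, others -4.47 to -4.40) and Pfdn1 in array 1 (-0.47, others -0.80 to -0.75) were the rest of that stage. On blastocyst array 4, Tor2a was at -2.30 (others -1.98 to -1.94) and Uqcrc2 at -0.35 (others 0.22 to 0.30). Without the array in question Col4a2 (limma adjusted p = 0.1), Tor2a (0.098), Bnip3l (0.072) and Pfdn1 (0.064) no longer passed. The cause of these values was not tested.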

How the results depend on the processing

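The count of 832 probes that differed between blastocysts and 8-cell embryos depended most on how the spread was estimated: it was 4287 in the fit of the 8 arrays alone and 5732 with array weights, and 508 after centring and scaling. It stayed within 1.5 times with the array run as a block (1209), after median centring (899) or quantile normalization (787), and with values at a limit or at 0 left out (812) or zeros missing (821). Without single arrays it was 522 to 755, and 2557 to 4533 in the fit of the 8 arrays, an alternative chosen after seeing the data; the lowest were without blastocyst array 1 (522), 8-cell array 2 (527) and blastocyst array 3 (538), and, in the 8 arrays, without 8-cell arrays 2 (2557) and 3 (2827). Replicate numbers share no stated origin, and deviations of same-numbered arrays correlated at -0.0212 to -0.189. Those of differently numbered arrays correlated at -0.21 to 0.411, the highest for blastocyst array 2 with 8-cell array 1. With the replicate block the 8-array count was 2850. Against the morula, 289 probes differed with the run block, 533 within the second run alone and 147 to 336 without single arrays (147 and 170 without blastocyst arrays 1 and 3, 189 without morula array 3). The morula against the 8-cell embryo gave 1101 without the block and 1 within the second run. Of the list members, 52 passed, 144 in the 8 arrays and 34 to 49 without single arrays (34 without 8-cell array 2). Of 65 named genes past the threshold, 15 no longer passed after scaling, 7 after quantile normalization and 7 to 19 without single arrays. The direction changed for 0 of them under any alternative run, which says little. The run block, the replicate block and the fit of the 8 arrays left each difference the same. Genes whose arrays do not overlap between stages keep their sign when a single array is left out. The number of arrays, the limits and the likely but unsettled direction bound what these values show.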

Other observations

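A few further rises fall outside the naming rule and were chosen after their values were seen. Grhl1, a Grainyhead-family transcription factor of epithelia, stood at 2.83, 2.35, 2.37 and 1.89 in blastocysts, against -0.02, -0.51, 0.05 and 0.06 in 8-cell embryos, 5.52-fold higher (2.46 ± 0.48 SE, limma adjusted p = 0.0018). Rac1, a small GTPase of the actin cortex, stood at -2.03, -2.51, -2.62 and -2.86 in blastocysts by its probe of largest difference, against -4.65, -4.98, -4.89 and -4.97 in 8-cell embryos (limma adjusted p = 6.6e-06), and its other probe differed by 0.38 without passing. Both genes were higher in eggs, read mostly in the other run. Grhl1 averaged 4.15 in unfertilized eggs, and the first Rac1 probe -0.79 in fertilized eggs. Lefty1, a secreted antagonist of Nodal, was 3.48-fold higher (limma adjusted p = 0.0014). Nid2, a basement membrane protein, rose 3.97-fold by 1 probe and differed by 0.28 by the other, and Itgb6, an integrin of epithelia, rose 4.79-fold by 1 probe and differed by -0.04 by the other, with a limma adjusted p of up to 0.055 for the rise when single arrays were left out. Of the 16 windows of 11 genes that fell, 10 (62.5%) held the AP-2 core, against 26% of the windows of measured genes, and this difference was not tested.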
